A study of Anguilla anguilla and Anguilla rostrata with 84 samples.

Results

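In liver RNA of eels measured on a microarray of 992 contigs, 68 contigs deviated most among 9 laboratory treatments in fish kept at low temperature, on the high side, out of 732 that passed filters on spread and size. A contig is a transcript sequence assembled from reads. The files do not pair contigs with genes, and 0 of the 992 identifiers matched the gene table of the European eel reference assembly, so the contigs are called by number and no role is given to any of them. For each contig, D was the mean of the low temperature fish minus the mean of the 9 laboratory treatment means, on the log2 scale. After the 60 contigs with the largest spread within groups and then the 200 with the smallest deviations were set aside, 732 contigs remained. Low temperature held the largest deviation of 68 of these on the high side, and of 57 on the low side. The control is no part of this choice except through the filter on spread. Further contigs deviated most in low temperature on the high side but were set aside, 4 for their spread and 16 for the small size of their deviations. The values of the low temperature fish and of the other treated fish therefore chose the 68 contigs, and differences between these groups are given as a description without a test.

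Eels are ectotherms, so the temperature of their liver follows that of the water. The fish liver stores and releases energy, makes most plasma proteins and yolk precursors, and detoxifies foreign compounds. Cold slows enzyme reactions and stiffens membranes, and fish acclimating to cold are known to adjust the amounts of metabolic enzymes and the saturation of membrane lipids. The title of the series names responses that low temperature and chronic pollution have in common.

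Each of the 84 arrays compared liver RNA of 1 fish, labelled with the dye Cy3, with a common pool of 30 wild eels from the French site Certes, labelled with Cy5. A value of 0 is a normalized signal equal to that of the pool, and 1 is double that signal. Fish and pool carry fixed dyes by the labels, so a dye effect on a contig cannot be told apart from its level against the pool. Laboratory fish were European eels, Anguilla anguilla, kept as a control or given 1 treatment each. The low temperature group was kept in water at 13 degrees C. Food was restricted to 2.5% of body weight in another group, and a further one was held at a salinity of 18 per mil. Cadmium (Cd) was dissolved in the water at 0.4 or 4 ug/L. Contaminated food carried polychlorinated biphenyls (PCB) at 50 or 300 ng/g, methylmercury at 5 ug/g, or a mix of organochlorine pesticides (OCP) at 13 ng/g, each per dry weight. Wild European eels came from the rivers Dordogne and Garonne and the Gironde estuary, and American eels, Anguilla rostrata, from the rivers St Jean and Sud-Ouest and the lakes St Pierre and St François in Quebec. Each group had 5 fish, and PCB at 300 ng/g had 4. Slides held 1 array each and were numbered group by group from the control through the cadmium groups. The control had the first slides, so it differs from every other group in slide number as well. Treatment and slide number cannot be told apart there. The labels do not state the temperature of the control, the length of exposure, or the age and sex of the fish.

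A total of 3 arrays stood apart and were left out, which leaves 81 fish. The raw columns of control fish 5 were identical to those of high salinity fish 4, and those of fish 1 at 4 ug/L cadmium to those of fish 4 at 0.4 ug/L cadmium. The array of low temperature fish 4 ran against its own group, and against the fish of the other groups, over all contigs. Its Pearson correlation with the other low temperature fish lay between -0.56 and -0.49, while those 4 fish correlated with each other between 0.41 and 0.66. With the 77 fish of the other groups, the correlation of fish 4 lay between -0.55 and -0.07. The direction of its ratio is not settled, so its values are given both as deposited and with the sign turned. The 4 remaining fish of the low temperature group are fish 1, 2, 3 and 5.

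Low temperature fish had a higher level of the 68 contigs than any other treated fish, which the choice of the contigs fixes. The median over the 68 contigs was 0.06, 0.14, 0.28 and 0.32 in the 4 low temperature fish, in ascending order, on the log2 scale against the pool. It was -0.53, -0.49, -0.31 and -0.17 in the 4 control fish. The ranges of the low temperature and control fish did not overlap. Over all 992 contigs, the median of the group means stayed between -0.02 and 0.03 in each of the 17 groups. Fish 4 of the low temperature group had a median of -0.14 as deposited and 0.14 when turned.

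**Figure D1:**
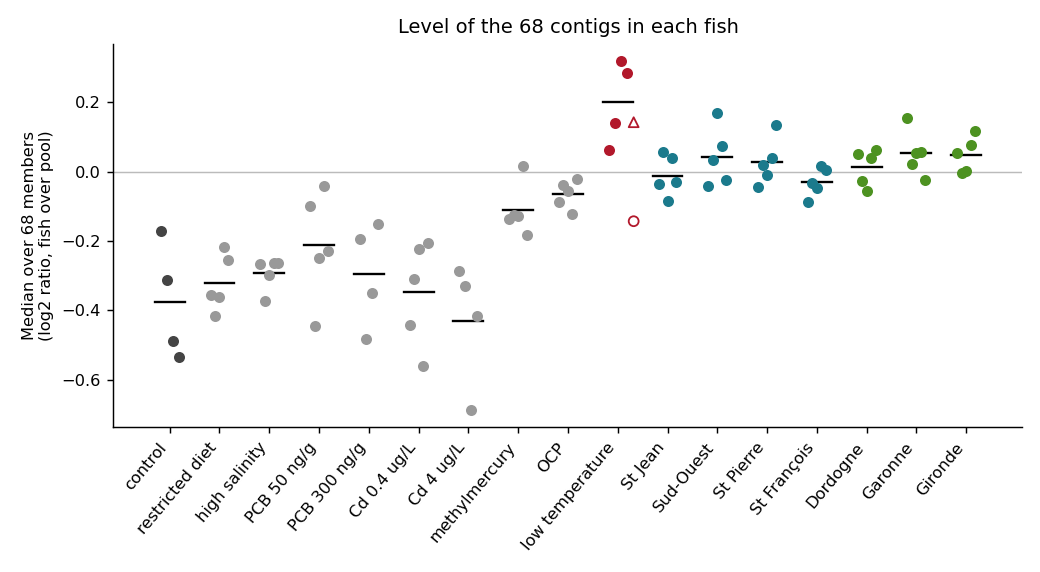
Median log2 ratio over the pool across the 68 contigs in each fish (points), by group, with the mean of each group as a bar. The open circle and open triangle are low temperature fish 4 as deposited and turned. The low temperature fish lie between 0.06 and 0.32, and the control fish between -0.53 and -0.17.

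The other treatments fell into an order below low temperature. Methylmercury fish had medians over the 68 contigs of -0.18 to 0.02 and OCP fish of -0.12 to -0.02, so the OCP fish lay above the whole control range and the lowest methylmercury fish just within it. Fish at 4 ug/L cadmium had the lowest group mean, -0.43 ± 0.18 (SD, n = 4), with a range of -0.69 to -0.29. The remaining treatments had group means from -0.35 ± 0.15 (SD, n = 5) at 0.4 ug/L cadmium to -0.21 ± 0.16 (SD, n = 5) at 50 ng/g PCB, and each of these overlapped the control range. Contig by contig, the second highest treatment was methylmercury for 32 of the 68 and OCP for 20. The lowest treatment was 4 ug/L cadmium for 21 and the restricted diet for 16. These counts use values that also chose the contigs, and they were not taken over all contigs. The order is therefore a description, not a trait of the 68. Among the 732 contigs left by the filters, 4 ug/L cadmium held the largest deviation on the low side for 90, the most of any treatment. At 4 ug/L cadmium the range of the fish medians overlapped that at 0.4 ug/L, -0.56 to -0.20, and the ranges of both PCB doses overlapped as well.

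Control fish took no part in the choice of the 68 contigs except through the filter on spread. The low temperature mean exceeded the control mean for 67 of 68 contigs, against 52.6% of all 992. The median difference was 0.64 on the log2 scale, and the median D was 0.48 with a range of 0.26 to 1.23. All 4 low temperature fish lay above all 4 control fish for 32 of the 68, where 8.57% of all contigs did so. The low temperature fish chose the contigs, so nothing is read from this gap. The control mean lay below the pool for 56 of 68, against 50.8% of all contigs. The low temperature mean lay above the pool for 50, against 51.2% of all contigs.

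**Figure D2:**
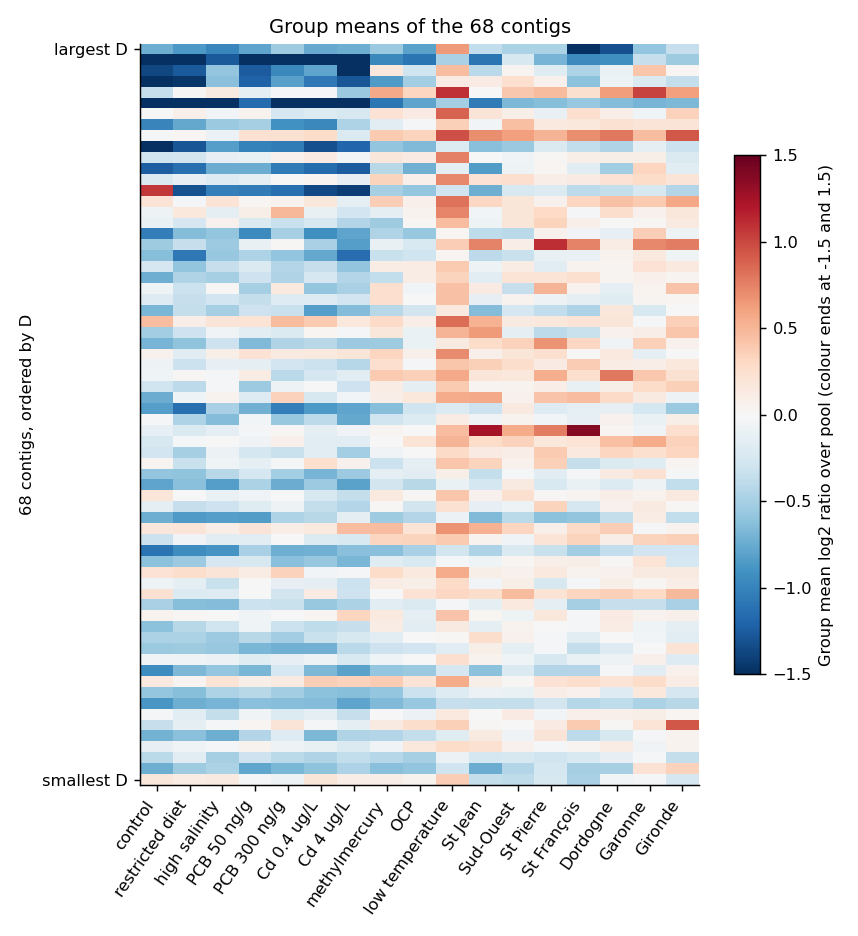
Mean log2 ratio over the pool of each of the 68 contigs (rows, ordered by D) in the 17 groups (columns). Red is above the pool, blue below, and colours end at -1.5 and 1.5. The control and most treatments are blue in most rows, with 56 of 68 control means below the pool, and the low temperature column is red in most, with 50 of 68 means above it.

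The contig with the largest D was contig_25111, with 1.23. It read 1.00, 0.74, 0.69 and 0.12 in low temperature fish 1, 2, 3 and 5. In the 4 control fish it read -1.09, -1.13, -0.46 and -0.24. The highest of the 38 fish of the other treatments was at -0.05, below every low temperature fish. The means of the wild sites were all below the pool for this contig, from -2.01 ± 0.39 (SD, n = 5) at St François to -0.34 ± 0.40 (SD, n = 5) in the Gironde, although single fish reached 0.83 at St Pierre, 0.37 at St Jean and 0.12 in the Gironde, within the low temperature range.

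For contig_11347, second in D with 1.20, low temperature fish 1, 2, 3 and 5 read -0.86, -0.45, -0.42 and -0.20. The control fish read -2.52, -2.42, -2.62 and -3.21. All 4 low temperature fish were thus below the pool and above all 4 control fish. Methylmercury and OCP fish came next, with means of -0.96 ± 0.21 (SD, n = 5) and -1.09 ± 0.37 (SD, n = 5), and high salinity followed with -1.26 ± 0.14 (SD, n = 5).

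Low temperature fish lay above all 38 other treated fish for 3 of the 68 contigs, which are contig_25111, contig_26223 and contig_20736, and 0.302% of all contigs did so. These 3 contigs were listed after their values were seen, and the choice of the 68 raises this count. The gap between the lowest low temperature fish and the highest other treated fish was 0.17 for contig_25111. For contig_20736 it was only 0.0085. contig_26223 read 0.23, 0.08, 0.11 and 0.13 in the low temperature fish and -0.37, -0.53, -0.93 and -0.96 in the control fish. contig_20736 read -0.21, -0.29, -0.14 and -0.17 in the low temperature fish and -1.15, -1.23, -1.76 and -1.85 in the control fish. Both had narrow low temperature groups, with SDs of 0.06 and 0.07 (n = 4), while the control SDs were 0.29 and 0.36 (n = 4).

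**Figure D3:**
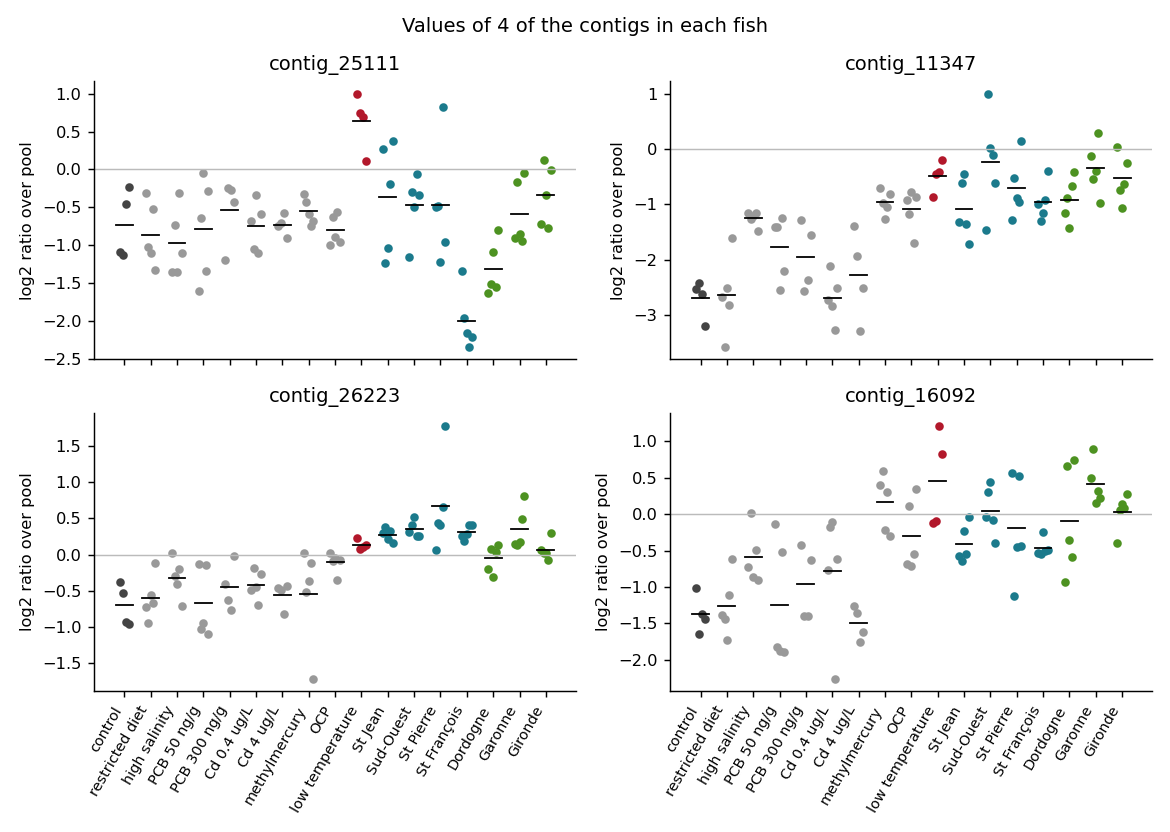
Log2 ratio over the pool of 4 of the contigs in each fish (points), by group, with group means as bars. contig_25111 is above 0 in the 4 low temperature fish (0.12 to 1.00) and below 0 in the other treated fish. contig_11347 and contig_16092 are low in the control and closer to the pool in low temperature, methylmercury, OCP and wild fish.

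A single fish carried D in some contigs. All 4 low temperature fish lay above the mean of the other 8 treatments for 56 of 68 contigs, and at least 1 fish fell short for the other 12. Of all contigs 17.1% had all 4 fish above, and the choice of the 68 raises this count. contig_8072 read 1.69 in low temperature fish 1 and 0.13, -0.17 and -0.23 in fish 2, 3 and 5. contig_39326 read 1.99 in fish 5 and -0.42, -0.06 and 0.35 in fish 1, 2 and 3. These 2 contigs overlapped the control and every other treatment.

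At the lower end, contig_36682 and contig_18637 had the smallest D, both 0.26. With 1 low temperature fish left out, D ranged from 0.16 (without fish 1) to 0.39 (without fish 2) for contig_36682, and from 0.044 (without fish 2) to 0.37 (without fish 5) for contig_18637. contig_36682 read 0.05, -0.74, -0.23 and -0.27 in the low temperature fish and -0.59, -0.36, -0.86 and -1.11 in the control. contig_18637 read 0.15, 1.10, 0.24 and -0.02 in the low temperature fish and 0.12, 0.23, 0.00 and 0.32 in the control. Both contigs overlapped between the groups. For contig_18637, however, just 1 of the 4 control fish gave a Cy3 signal that exceeded the background. The pool gave such a Cy5 signal for 3 of these 4 fish. The control values of contig_18637 are therefore not read as levels, and its overlap with the control is not settled. Just outside the threshold, contig_18926 had a D of 0.25 and was dropped for its size. contig_17146 was kept because its D in low temperature, 0.28, exceeded the size of its deviation in high salinity by 0.0018, and contig_28782 was not, because its deviation at 4 ug/L cadmium was 0.0075 larger. contig_26781 had the largest median SD within groups of those kept, 0.43, and contig_6092, with a D of 0.60, was dropped for an SD of 0.46.

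The 1 contig with a lower mean at low temperature than in the control was contig_18019, singled out after its values were seen. The control fish read -1.33, -0.90, -1.52 and 8.00, and the low temperature fish -0.55, -0.37, -0.21 and -0.09. In control fish 4, all 3 spots of this contig stood at 65535 in the Cy3 channel, the ceiling of a 16-bit scanner, and the Cy5 channel was near its background. Without that fish the control mean was -1.25 ± 0.32 (SD, n = 3) and the low temperature mean lay 0.95 above it.

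When each low temperature fish in turn was left out of the choice, the contigs chosen from the other 3 were also mostly higher than the control in the fish left out. Without fish 1, 84 contigs were chosen, and 73.8% of them were above the control mean in fish 1, against 52% of all contigs. The share was 87% in fish 2, 84.5% in fish 3 and 83.6% in fish 5, against 50.7%, 49.5% and 50.4% of all contigs. The median difference from the control in the fish left out was 0.34, 0.37, 0.56 and 0.52. The choices shared 53 to 60 contigs with the 68, and 36 contigs were chosen every time. Each choice used the same other treated fish, and each reading the same control mean. Every choice also favours contigs low in the other treated laboratory fish, and how far this carries over to the control was not tested. At the wild sites, means were above the control mean for 80.9% to 88.2% of the 68, against 49.7% to 52% of all contigs. The shares in the fish left out are therefore not read as an effect of low temperature. Contigs within a fish are not replicates, so these shares are a description without a test. In fish 4, which the rule omits, 40 of the 68 were above the control mean as deposited (58.8%, against 51% of all) and 59 when turned (86.8%, against 49.8% of all). Its array ran against the fish that chose the contigs, so turning its sign brings it towards them. The turned share is therefore no independent reading.

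**Figure D4:**
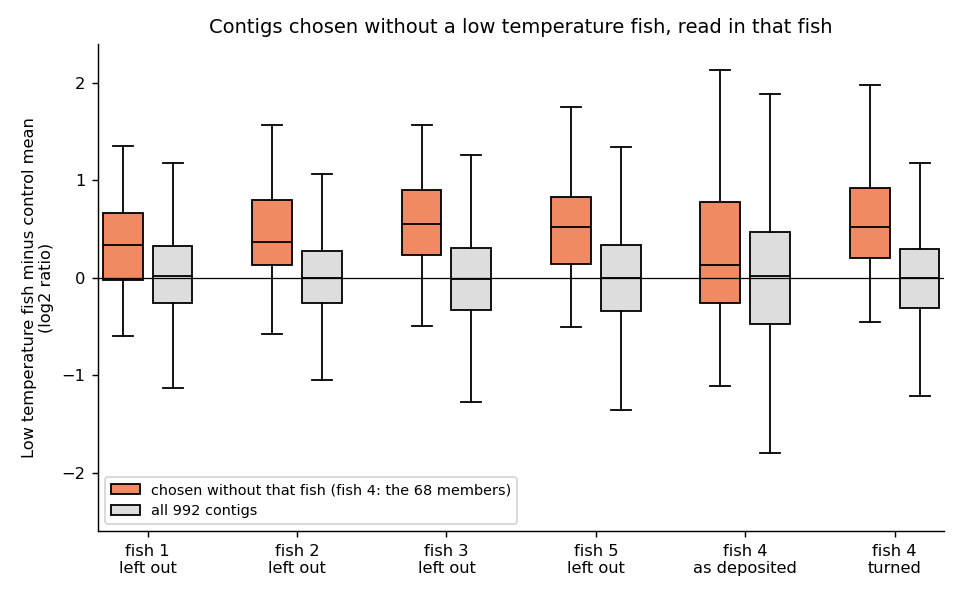
Log2 difference between 1 low temperature fish and the control mean, for contigs chosen without that fish (orange) and for all 992 contigs (grey). For fish 4 the orange boxes hold the 68 contigs. Boxes span the quartiles with the median as a line, whiskers reach at most 1.5 times that span, and values beyond are not drawn. Orange medians are 0.34, 0.37, 0.56 and 0.52 for fish 1, 2, 3 and 5, and grey medians lie near 0.

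The number of contigs above background differed between groups, while mean log2 brightness overlapped between low temperature arrays (8.12 to 8.89) and control arrays (7.69 to 8.33). A low temperature array showed 939 to 972 contigs above background in both channels, and a control array 599 to 842. The restricted diet had the fewest as a group, 392 to 672, and a wild array had 759 to 992. The 68 contigs were somewhat brighter than the rest, with a median mean log2 signal of 8.28 against 7.90 over all 992. Of the 68, 66 were above background on all 4 low temperature arrays, against 93% of all contigs. On all 4 control arrays 44 were, against 55.5% of all, and 5 were so on no control array. For those 5 the Cy3 signal, that of the fish, stood above background on 0 of 4 control arrays. The Cy5 signal did so on 4 of 4 for contig_16752 and contig_4203, whose control value is only a bound. For contig_25119, contig_4032 and contig_5935 the Cy5 signal did so on 2, 2 and 1 of 4. Their control values are not a bound in either direction. On all laboratory arrays 28 were above background, against 29.6% of all contigs. These 28 had a median D of 0.58 and a median difference from the control of 0.68. Over the 34 dimmest of the 68 the median D was 0.45 and the median control level -0.08, and over the 34 brightest they were 0.53 and -0.69. The part of array brightness, or of the counts above background, in the differences between low temperature and the other laboratory fish was not tested.

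Wild fish were not used to choose the contigs, except through the filter on spread, and comparisons with them were tested. The first asked how the laboratory control stood against wild fish of the same species. In the control, 33 of the 68 contigs were lower than in the French wild eels and 0 were higher, by limma with Benjamini-Hochberg adjustment over 992 contigs and a threshold of 0.05. Of all contigs, 12.5% were lower and 8.67% higher. The median difference, control minus French sites, was -0.50 over the 68 contigs and -0.02 over all 992, and it was below 0 for 58 of the 68. The 33 differences ranged from -2.09 to -0.53. Among them, contig_4203, named after its values were seen, had no Cy3 signal above background on any of the 4 control arrays. All 4 control fish lay below all 15 French fish for 10 of the 68, against 1.81% of all contigs. Captivity, site, feeding and slide number cannot be told apart in this comparison. The count is also not independent of the choice, which favours contigs low in the other treated laboratory fish beside low temperature. The mean of the other 8 treatments lay below the pool of wild French eels for 54 of the 68, against 49.1% of all contigs. The control mean did so for 56. How far the choice carries over to the control was not tested.

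contig_11347 was the most different of them. The French fish read -1.17, -0.89, -1.44, -0.67 and -0.42 in the Dordogne, -0.12, -0.54, -0.39, 0.28 and -0.98 in the Garonne, and 0.04, -0.75, -1.06, -0.63 and -0.26 in the Gironde, all above the highest control fish at -2.42. Its difference was -2.09 (SE 0.28, limma adjusted p = 1.90e-07). contig_16092 read -1.02, -1.64, -1.38 and -1.44 in the control fish, while the French fish ran from -0.93 to 0.89, so the groups did not overlap. Its difference was -1.49 (SE 0.28, limma adjusted p = 1.20e-04). Low temperature fish 1, 2, 3 and 5 read -0.12, -0.09, 1.22 and 0.83 for this contig, within or above the range of the French fish.

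Of the 3 contigs in which the low temperature fish stood above every other treated fish, contig_20736 and contig_26223 passed, with differences of -1.19 (limma adjusted p = 9.69e-07) and -0.82 (limma adjusted p = 7.98e-04). contig_25111 did not pass, with a difference of 0.02 (SE 0.25, limma adjusted p = 0.967). Over the 33 contigs that passed, the median level was -0.70 in the control, -0.46 over the other 8 treatments, 0.05 at the French sites and 0.13 at low temperature. Over the other 35 contigs the median levels were -0.07, -0.10, 0.06 and 0.41 in the same order. The test picked the 33 contigs for a control below the French sites. The choice of the contigs put low temperature above the mean of the other 8 treatments in every one of the 33 and the 35. These gaps follow from the selection, and the levels are given as a description without a test. Low temperature fish were not tested against French fish, so no likeness between them is read from these levels.

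**Figure D5:**
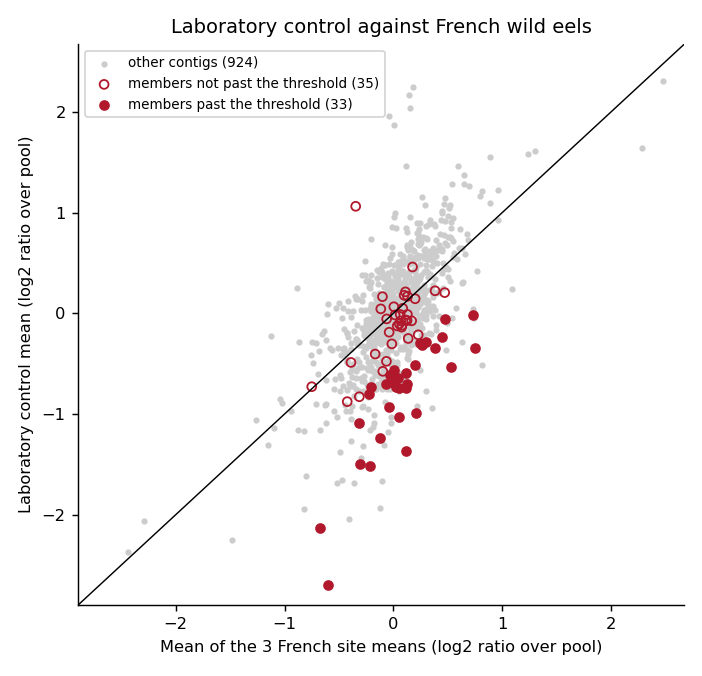
Mean log2 ratio over the pool in the laboratory control (vertical axis) against the mean of the 3 French sites (horizontal axis) for all contigs. Filled red points are the 33 of the 68 contigs that passed the test, open red points the other 35, grey points all other contigs, and the line marks equal values. All 33 filled points lie below the line.

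The control arrays had fewer contigs above background than most wild arrays, though the ranges overlapped, and the count was taken again on contigs above background in both channels on every control and French array. Of the 38 such contigs among the 68, 25 were lower in the control and 0 higher, where 14.2% of all such contigs were lower. Against the Canadian sites in place of the French ones, 28 of the 68 were lower in the control and 1 was higher, with 12.3% of all contigs lower. Both counts use settings chosen after seeing the data, and the second crosses species. Leaving out control fish 4 gave 20 lower and 0 higher, with 5.04% of all contigs lower and 3.43% higher. Centring each array on its median in place of loess gave 17 lower and 1 higher, with 4.94% of all contigs lower and 8.77% higher.

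At each of the 7 sites, 55 to 60 of the 68 site means were above the control mean, against 49.7% to 52% of all contigs. Of the 68, 8 to 19 were above the low temperature mean, against 49.4% to 52.7% of all contigs, and a low count on this side follows from the choice of the contigs. All 7 site means exceeded the control mean for 46 of the 68, against 27.2% of all contigs. The counts against the control are not independent of the choice either, which favours contigs low in the other treated laboratory fish. The low temperature mean was above all 7 site means for 32, within their range for 36 and below all 7 for 0, where 14.8%, 69.5% and 15.7% of all contigs were. Fish medians over the 68 contigs ran from -0.09 to 0.17 in the wild fish, so that 2 of the 4 low temperature fish, with 0.06 and 0.14, lay within the wild range.

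Canadian and French eels were compared next, and here country, species and site cannot be told apart. Of the 68 contigs 2 passed the limma threshold, beside 3.53% of all contigs, with 1 higher (1.41% of all) and 1 lower (2.12% of all) in the Canadian fish. contig_39326 was higher in the Canadian fish. The Canadian fish read 1.41, 1.84, 1.22, 0.68 and 1.10 at St Jean, 0.42, 0.12, 0.94, 0.83 and 0.48 in the Sud-Ouest, -0.23, 0.48, 1.69, 1.18 and 0.72 at St Pierre, and 1.88, 1.09, 2.41, 1.15 and 0.34 at St François. The French fish ran from -0.23 to 0.99, so the 2 sides overlapped. The difference was 0.91 (SE 0.16, limma adjusted p = 9.07e-04). Its Cy3 signal was above background on 0 of 5 restricted diet arrays and on 2 of 4 control arrays.

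contig_36682 was lower in the Canadian fish, with a difference of -0.51 (SE 0.13, limma adjusted p = 0.0241). The call was lost with median centring (limma adjusted p = 0.419), without background subtraction (0.0625) and in the authors' processed values (0.0581). Site means were -0.74 ± 0.25 at St Jean, -0.44 ± 0.50 in the Sud-Ouest, -0.27 ± 0.35 at St Pierre and -0.50 ± 0.59 at St François, and -0.50 ± 0.18, 0.22 ± 0.19 and 0.35 ± 0.44 in the Dordogne, Garonne and Gironde (SD, n = 5 each). The Dordogne thus stood with the Canadian sites rather than with the other French ones.

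Within Quebec, the lakes St Pierre and St François were set against the rivers St Jean and Sud-Ouest. The error of the test comes from fish within sites, so lake or river cannot be told apart from the single sites. None of the 68 contigs passed, that is 0 in limma after adjustment and 10 at an unadjusted p under 0.05, beside 1.61% (0.907% higher and 0.706% lower) and 11.7% of all contigs. contig_25111 had the largest difference, -0.82 (SE 0.23, limma adjusted p = 0.0523). Its values at St François were -1.35, -1.96, -2.16, -2.34 and -2.22, below every fish of the other Canadian sites, while St Pierre, with -0.50, -0.49, -1.22, 0.83 and -0.97, overlapped both rivers. contig_23144 followed with -0.61 (SE 0.23, limma adjusted p = 0.248).

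In France, the Gironde estuary was set against the rivers Garonne and Dordogne. There was 1 estuary site, so estuary and site cannot be told apart. The test takes its error from fish within sites and does not measure the spread between sites. Of the 68 contigs 1 passed, beside 1.11% of all contigs, and 7 had an unadjusted p under 0.05, beside 13.8%. contig_8072 read -0.01, 1.02, 0.82, 1.12 and 1.70 in the Gironde, 0.19, 0.33, -0.14, 0.47 and 0.14 in the Garonne, and 0.07, -0.06, -0.26, -0.11 and 0.47 in the Dordogne. Of the 5 Gironde fish, 4 lay above all river fish and 1 within their range. The difference was 0.82 (SE 0.18, limma adjusted p = 0.0146), and the call was lost when only the 3 French sites were fitted (limma adjusted p = 0.0630). This is the contig whose D rested on low temperature fish 1.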

How the data were processed

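Liver RNA of 84 fish was hybridised against a common pool, 1 fish per array. The authors deposited foreground and background intensity values of both channels for 3 spots per contig, as read by the scanner, with no subtraction or normalization recorded per the file headers. The authors also deposited log2 ratios per contig, which were recomputed from the raw intensities as background-subtracted fish over pool, centred on the median of each array, for 80 fish (within 0.05 on the log2 scale for 99% of contigs). Of the other 4, the restricted diet fish 2 and 3 had exchanged columns between the files, and 2 were the copied raw columns described above. The scanner and the software behind the files are not named in the labels or file headers.

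Intensities were corrected by normexp (offset 50), normalized by loess within arrays and averaged over 3 spots with limma 3.58.1 (R 4.3.3). A model with 1 mean per group (lmFit, then eBayes) was fitted to all 992 contigs, on 35 wild fish for comparisons among sites and on 81 fish for the control, with Benjamini-Hochberg adjustment within each comparison and a threshold of 0.05. The number of arrays limits the precision. A contig counted as above background where its mean background-subtracted signal was above 0. Replicate numbers only name fish.

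The 68 contigs, the comparisons and the lists were chosen with earlier results of these data known. Contigs were named where they had the 2 largest or 2 smallest D, the 2 largest gaps between low temperature and other treated fish, or, per comparison, the largest differences past the threshold (at most 2 higher and 2 lower, or the 2 largest where none passed), or lay next to a threshold of the rule. Others are said to have been chosen after their values were seen. Gene and marker lists planned for named contigs were not run, since 0 contigs matched a gene. The settings varied were loess (median centring instead), background subtraction (none instead), the source of the values (the authors' instead), scaling between arrays, filters on dim contigs and arrays, reference brightness as a covariate, fitting only the groups compared, and leaving out each fish.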

Additional observations from a re-analysis of the deposited data

Results flagged for a closer look

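Within groups of 4 or 5 fish, a highest or lowest fish was looked for that lay far from the rest (Dixon's criterion at the 95% level). Only part of the groups of the named contigs was examined. Of 72 groups examined 3 had such a fish, and chance gives about 1 in 20. Groups outside these were not counted, such as high salinity for contig_18637, with a highest fish at 1.54 and a median of -0.21. contig_18019 stood at 8.00 in control fish 4, with the nearest control fish at -0.90, a gap of 0.934 of the range. All 3 spots of this contig stood at 65535 on that array. contig_36682 stood at -0.18 in Dordogne fish 5, with the nearest at -0.54, a gap of 0.861 of a narrow range. contig_23144 stood at 1.45 in Dordogne fish 3, with the nearest at -0.12, a gap of 0.743 of the range. The causes were not tested.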

How the results depend on the processing

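No paired analysis was possible because the numbers of the fish are names given in accession order, with no link between groups. Slide as a block could not be fitted, since each slide held 1 array, and for Canadian against French sites the groups compared are already all that is fitted. The rule gave 52 to 93 contigs under every other processing but the authors' processed values, where it gave 10, of which 7 were among the 68, and 47 of the 68 were still highest at low temperature among the 9 treatments. Leaving out 1 low temperature fish gave 67 to 84. The median D was 0.29 without background subtraction and 0.75 in the authors' values, and 0.45 to 0.53 with 1 fish left out. The median difference from the control was 0.39 and 1.04 in those settings, and 0.59 to 0.67 with 1 fish left out. For contig_36682, D turned to -0.015 in the authors' values.

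Of the 68, the number lower or higher in the control than at the French sites was 33 as reported, 18 with median centring (17 lower and 1 higher) and 22 to 34 under the other settings. It was 20 to 34 with 1 fish left out, and 20 without control fish 4. In the authors' values it was 30, 25 lower and 5 higher, with 17 of the 33 shared, where 18% of all contigs were lower and 14.2% higher. Over all contigs 8.67% were higher and 12.5% lower as reported, and 8.77% and 4.94% with median centring. For Canadian against French sites the count was 2 as reported, 1 in the authors' values, 6 with median centring, 4 with reference brightness as a covariate and 2 to 4 with 1 fish left out (4 without St Pierre fish 5 or Sud-Ouest fish 3). For lakes against rivers it was 0 as reported, 1 in the authors' values, 1 without dim contigs and 0 to 2 with 1 fish left out (2 without St Pierre fish 4). For the Gironde against its rivers it was 1 as reported, 0 in the authors' values, 0 with median centring, 0 without background subtraction, 0 with only the groups compared and 0 to 2 with 1 fish left out (0 without Gironde fish 2, 4 or 5, and 2 without Garonne fish 2). The causes were not tested.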
